A study of Mus musculus with 16 samples.

Results

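Acetylation and trimethylation of lysine 27 of histone H3 were compared at the starts of protein-coding genes in mouse embryonic stem (ES) cells, using the regions of the genome enriched in each mark by ChIP-seq. The 2 modifications sit on the same residue, so a single histone tail carries one or the other. H3K27Ac and H3K27Me3 accounted for 8 of the 16 samples of the series, with the XX lines BCF3 and BCF4 and the XY lines BCM1 and BCM2 profiled for each mark. The lines are F1 hybrids of C57BL/6 and CAST/EiJ mice, independently derived and of low passage, and were grown in serum and LIF on inactivated embryonic fibroblasts taken from male and female embryos. The fibroblasts were removed as far as possible before the cells were collected. The deposited data are 1 list of enriched regions for each sex and mark, so the 2 lines of a sex cannot be separated. The lists hold positions alone, with no height or score, and their read depth is unknown.

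A gene model carried a mark by the rule used here when an annotated transcription start site (TSS) had a region no more than 2 kb away in the XX list and also in the XY list of that mark. On chromosomes 1 to 19, 21418 protein-coding gene models were placed in 4 classes by this rule. H3K27Ac alone was found at 8332 (38.9%), H3K27Me3 alone at 3616 (16.9%), both marks at 2064 (9.64%) and neither at 7406 (34.6%). "Alone" here means that the other mark was not in both of its lists, and 1314 genes with H3K27Ac alone had H3K27Me3 in 1 list, while 650 genes with H3K27Me3 alone had H3K27Ac in 1 list. The class sizes follow from the rule and the lists, and what is described here is which genes fell in each class, how wide their regions were and which features they shared that the rule did not use.

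As background, H3K27Ac is laid down by the acetyltransferases p300 and CBP and marks active promoters and enhancers. H3K27Me3 is laid down by Polycomb repressive complex PRC2, whose catalytic subunit in ES cells is Ezh2, and in mammals it gathers at CpG islands, the CpG-rich stretches that surround many gene starts. In ES cells many developmental regulators carry H3K27Me3 while silent, often together with marks of active promoters, a state called bivalent. The class with both marks used here rests on H3K27Ac and H3K27Me3, and whether its genes are bivalent was not tested. A promoter with both marks in a population of cells may hold them on different alleles, nucleosomes or cells, and region lists cannot separate these.

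Gene starts of the classes differed in CpG content, and 1 promoter of each class is shown to give an example of such a start. They were taken from genes named here, as those with a CpG ratio closest to the median of their class over 1001 bases. Each stretch is the 200 bases upstream of the annotated 5′ end in the mouse reference genome (NCBIM37, the same assembly as mm9), written 5′ to 3′ on the strand of the gene, with every CG dinucleotide in capitals. Ccnb1, which encodes the mitotic cyclin B1, had H3K27Ac alone (chr13:101556526-101556725, minus strand, 20 CG dinucleotides). Nkx2-5, which encodes a cardiac homeobox factor, had H3K27Me3 alone (chr17:26978511-26978710, minus strand, 6 CG). Cdkn2c, which encodes the cyclin-dependent kinase inhibitor p18, had both (chr4:109339795-109339994, minus strand, 4 CG). Olfr855, an olfactory receptor gene, had neither (chr9:19388755-19388954, plus strand, 1 CG). The 200 bases shown are a part of the stretch behind the ratio and do not follow its order, since Cdkn2c has fewer CG here than Nkx2-5.
Ccnb1: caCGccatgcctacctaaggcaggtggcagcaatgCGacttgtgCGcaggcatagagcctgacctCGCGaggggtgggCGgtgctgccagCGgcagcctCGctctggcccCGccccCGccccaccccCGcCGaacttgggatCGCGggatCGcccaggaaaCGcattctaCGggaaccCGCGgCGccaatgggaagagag
Nkx2-5: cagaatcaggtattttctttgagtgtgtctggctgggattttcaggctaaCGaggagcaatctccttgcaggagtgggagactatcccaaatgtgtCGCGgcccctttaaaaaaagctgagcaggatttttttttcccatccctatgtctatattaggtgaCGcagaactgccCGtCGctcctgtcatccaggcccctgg
Cdkn2c: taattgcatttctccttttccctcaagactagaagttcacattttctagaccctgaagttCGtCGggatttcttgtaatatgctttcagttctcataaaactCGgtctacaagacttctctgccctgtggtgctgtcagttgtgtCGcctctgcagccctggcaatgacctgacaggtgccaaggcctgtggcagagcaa
Olfr855: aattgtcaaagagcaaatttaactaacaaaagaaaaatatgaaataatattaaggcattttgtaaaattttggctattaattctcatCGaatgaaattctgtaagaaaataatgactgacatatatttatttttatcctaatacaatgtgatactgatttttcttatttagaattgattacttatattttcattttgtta

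Over the 1001 bases centred on the 5′ end, the observed/expected CpG ratio (the number of CG dinucleotides relative to that expected from the C and G content) had a median of 0.749 for genes with H3K27Ac alone, 0.592 with H3K27Me3 alone, 0.724 with both and 0.191 with neither. A ratio above 0.6, typical of CpG islands, was found at 75.7% of genes with H3K27Ac alone, at 48.8% with H3K27Me3 alone, at 70.6% with both and at 5.71% with neither. Genes with H3K27Me3 alone thus spread further towards low CpG content, and a ratio below 0.2 was found at 4.18% of genes with H3K27Ac alone, against 10.0% with H3K27Me3 alone. The median GC content was 58.4% with H3K27Ac alone and 58.3% with H3K27Me3 alone, near-equal values beside their different CpG ratios. Genes with both marks had the highest median GC content, 61.2%, and genes with neither had the lowest, 45.5%.

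**Figure D1:**
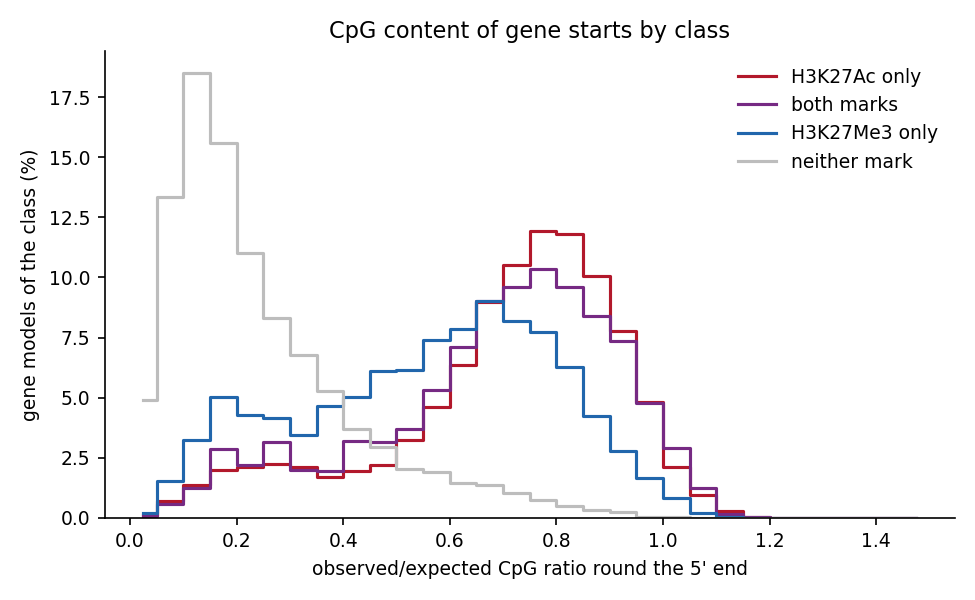
Share of the gene models of each class (%) by observed/expected CpG ratio in the 1001 bases round the 5′ end of the gene. The classes with H3K27Ac alone and with both marks lie to the right (medians 0.749 and 0.724), the class with H3K27Me3 alone is broader (median 0.592) and the class with neither lies to the left (median 0.191).

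Short promoter motifs were counted as a description, TATAAA on the strand of the gene and GGGCGG and CCAAT on both strands. The letters TATAAA, the core of the TATA box, stood within 50 bases upstream of the 5′ end at 1.16% of genes with H3K27Ac alone, 2.43% with H3K27Me3 alone, 1.5% with both and 6.13% with neither, beside 3.13% of all gene models. GGGCGG, the GC box, stood within 200 bases upstream at 53.6%, 46.9%, 58.1% and 11.3% of the same classes, beside 38.2% of all. CCAAT was the most even of these, at 33.8%, 26.1%, 26.8% and 29.3%, beside 30.3% of all. Starts of another gene on the opposite strand within 1 kb upstream, as at divergent promoters, were found at 15.1% of genes with H3K27Ac alone, 2.96% with H3K27Me3 alone, 6.83% with both and 0.662% with neither.

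H3K27Ac was found within 2 kb of 11000 gene models in the XX list (51.4% of those tested) and 11001 in the XY list (51.4%), and in both lists at 10396 (48.5%). H3K27Me3 was found at 7259 in the XX list (33.9%) and 6380 in the XY list (29.8%), and in both at 5680 (26.5%). The mean share was 51.4% ± 0.0033 for H3K27Ac and 31.8% ± 2.9 for H3K27Me3 (SD, n = 2 lists each), a difference of 19.5 percentage points. The difference was 17.5 points between the XX lists and 21.6 points between the XY lists. The values of the 2 marks did not overlap, but 2 lists against 2 cannot give a two-sided p below 0.333 in the exact permutation test, which was the p obtained. With equal numbers of the widest regions taken from each list, the difference was 1.69 percentage points.

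H3K27Me3 was found at 19.9% of genes with H3K27Ac (2064 of 10396) and at 32.8% of genes without it (3616 of 11022). In the other direction, H3K27Ac was found at 36.3% of genes with H3K27Me3 and at 52.9% of genes without it. These gaps depend on the rule that a mark be in both of its lists. With a region in either list of a mark, 4212 genes had both marks and 7393 had H3K27Ac alone. H3K27Me3 alone was then at 3747 genes and neither mark at 6066, so the shares with and without the other mark lay much closer together.

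Most genes kept their class between sexes. When the XX and the XY lists were used separately, 18114 gene models (84.6%) had the same class in both. The class with both marks was the least stable. It held 3346 genes in the XX lists and 2835 in the XY lists, of which 2064 were shared, or 61.7% of the XX and 72.8% of the XY genes. A gene that had both marks in the XX lists and not in the XY lists most often had H3K27Ac alone there (920 genes), against 303 with H3K27Me3 alone and 59 with neither. The XX list of H3K27Me3 was also the longer, with 18270 regions against 14977 in the XY list on these chromosomes. The part of list length in these changes was not tested. Few genes exchanged one mark for the other, with 33 genes at H3K27Ac alone in XX and H3K27Me3 alone in XY, and 62 the other way round. Of the 7406 genes with neither mark by the rule, 6066 (81.9%) had no region in any of the 4 lists and the other 1340 missed the rule, 1156 with a region in 1 list and 184 with a region in 1 list of each mark.

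The classes were chosen by regions within 2 kb of a TSS, so high coverage near the start follows in part from the rule. Within that limit, H3K27Ac lay more tightly around the gene start than H3K27Me3. In the class with H3K27Ac alone, coverage by H3K27Ac regions peaked 200 bp downstream of the 5′ end, at 94.7% of genes in the XX list and 94.9% in the XY list, and was 42.3% in both lists at 2 kb upstream. In the class with H3K27Me3 alone, coverage by H3K27Me3 peaked 800 bp downstream, at 89.7% (XX) and 87.0% (XY), and was still 76.2% and 74.1% at 2 kb upstream. Where both marks were present the arrangement was different. H3K27Ac again peaked at 200 bp downstream (82.8% in XX, 84.1% in XY), whereas H3K27Me3 peaked upstream, at 1400 bp in the XX list (73.3%) and 1600 bp in the XY list (68.8%), and dipped to 60.3% and 49.0% at the 5′ end itself. At 2 kb upstream H3K27Me3 covered 72.1% (XX) and 68.4% (XY) of these genes, and at 2 kb downstream 62.3% and 57.3%. Averaged over the class, its coverage was thus higher upstream than at the 5′ end, with only a slight rise downstream in the XX list. Single genes can differ from this average.

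**Figure D2:**
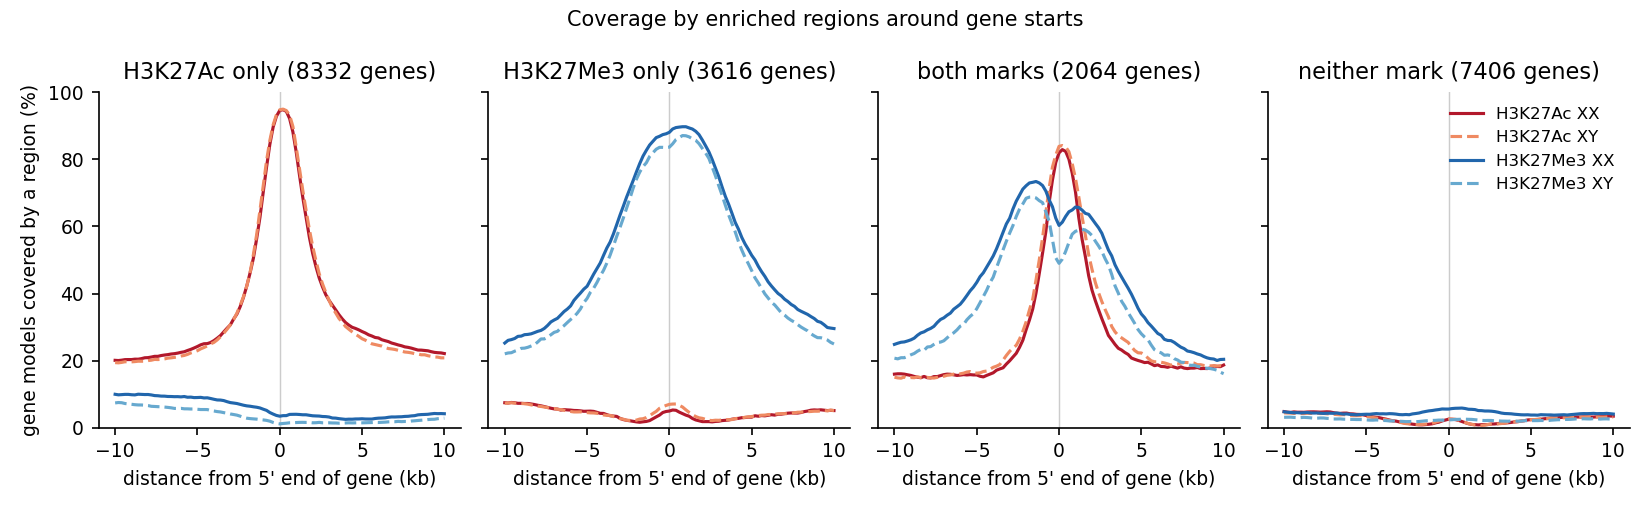
Share of gene models (%) covered by an enriched region at each distance from the 5′ end of the gene (kb, negative is upstream), in the 4 classes, for the XX (solid) and XY (dashed) lists of H3K27Ac and H3K27Me3. H3K27Ac forms a narrow peak at the start, H3K27Me3 a broad one, and at genes with both marks H3K27Me3 has a dip where H3K27Ac is highest.

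Of the 2064 genes with both marks, 1841 (89.2%) had them within 2 kb of the same TSS and 223 (10.8%) had them only at different TSSs of the gene. The regions of the marks overlapped in the XX lists at 1766 genes (85.6%) and in the XY lists at 1739 (84.3%), and a stretch under all 4 lists was present at 1528 (74.0%). That stretch was short, with a median of 1.4 kb and quartiles of 0.799 and 2.6 kb. Over the 5′ end itself, 1001 genes (48.5%) had H3K27Ac alone in its lists, 631 (30.6%) had both marks, 292 (14.1%) had H3K27Me3 alone and 140 (6.78%) had neither. When a region had to cover a TSS, rather than lie within 2 kb of it, the class with both marks held 1024 genes.

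Regions at gene starts were narrower for H3K27Ac. The median width of the regions within 2 kb of a gene start was 4.0 kb (XX) and 4.1 kb (XY) for H3K27Ac, and 6.6 kb (XX) and 6.2 kb (XY) for H3K27Me3. The mean of the medians was 4.05 ± 0.0707 kb for H3K27Ac and 6.4 ± 0.283 kb for H3K27Me3 (SD, n = 2 lists each), a difference of -2.35 kb (-2.6 kb between the XX lists and -2.1 kb between the XY lists), again with an exact permutation p of 0.333 as the smallest this design allows. The difference was -0.4 kb with equal numbers of the widest regions. Away from gene starts the marks had near-equal widths, with medians of 3.4 kb (XX) and 3.6 kb (XY) for H3K27Ac and 3.4 kb in both lists for H3K27Me3. A single H3K27Ac region lay within 2 kb of the starts of at most 9 genes in either list, and a single H3K27Me3 region of at most 13.

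For each gene the widest region at its starts was then taken. With H3K27Ac alone, its median was 4.6 kb in both lists, and 21.3% (XX) and 20.6% (XY) of genes had a region over 10 kb. With H3K27Me3 alone, the median was 9.2 kb (XX) and 8.2 kb (XY), and 44.3% and 37.6% exceeded 10 kb. With both marks, H3K27Ac had medians of 3.8 kb (XX) and 4.4 kb (XY) and H3K27Me3 of 7.4 kb (XX) and 6.0 kb (XY). Each was below the median of the same list where the mark stood alone. For H3K27Ac in the XY list this was 4.4 against 4.6 kb, a gap no larger than the 200 bp grid of the regions. The share of genes with H3K27Me3 over 10 kb was 32.0% and 21.9% in the class with both marks.

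**Figure D3:**
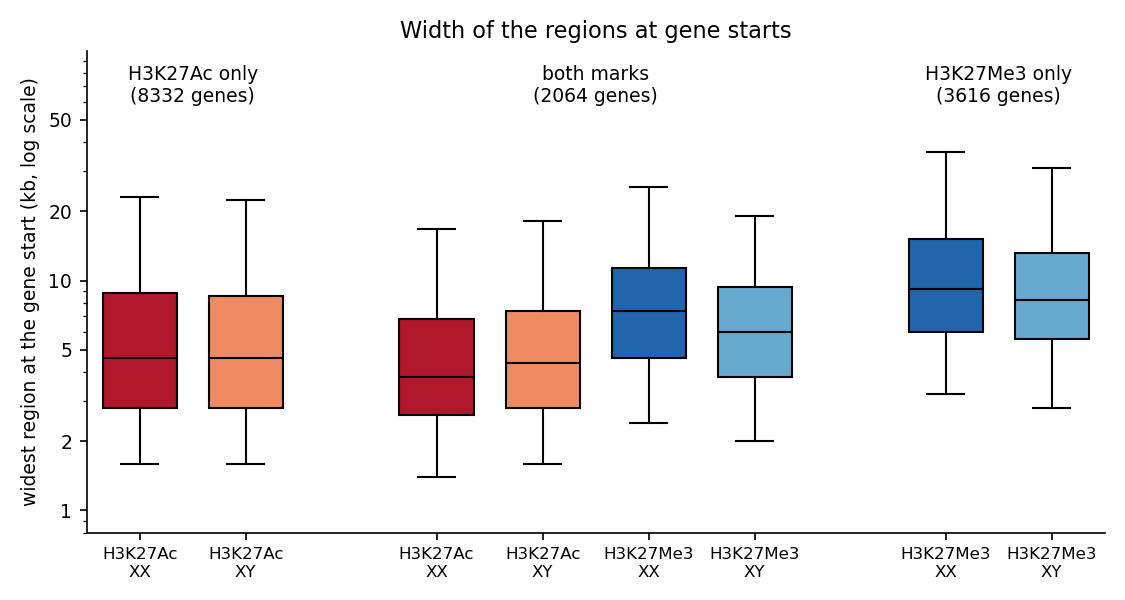
Width of the widest region at each gene start (kb, log scale) by class, mark and list. Boxes give the median and quartiles and whiskers the 5th and 95th percentiles over gene models, and in the class with both marks the H3K27Ac medians (3.8 and 4.4 kb) lie below the H3K27Me3 medians (7.4 and 6.0 kb).

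Among the widest H3K27Ac regions at genes with H3K27Ac alone was that at Rbpms, which encodes an RNA-binding protein (72.4 kb in XX, 71.8 kb in XY). A single region of 68.0 kb (XX) and 70.2 kb (XY) reached both Trim71, an E3 ligase gene active in early embryos, and the start of the neighbouring chemokine receptor gene Ccr4. The Ccr4 start lay at the border of this region, 1539 bp outside it in the XX list and within it in the XY list, and held an H3K27Me3 region of 4.2 kb in the XX list only. The regions over the Hox clusters were among the widest of H3K27Me3. One region covered the Hoxa cluster at chr6:52093801-52235399 in the XX list (141.6 kb) and chr6:52093001-52234199 in the XY list (141.2 kb). Single regions also lay over Hoxb9 (139.4 and 144.2 kb), Hoxc8 (141.0 and 145.4 kb) and Hoxd9 (113.4 and 124.0 kb). The longest stretches under both marks were at Tnrc18 (14.8 kb), at Id3 and Lef1 (10.6 kb each) and at the neighbouring claudin genes Cldn6 and Cldn9 (9.4 kb).

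Genes of the pluripotency network formed the check on the cell type. Of 21 core pluripotency factors found, 15 had H3K27Ac alone, 6 had both marks and none had H3K27Me3 alone or neither, beside 38.9% of all gene models with H3K27Ac alone and 9.64% with both. Their H3K27Ac was broad, with a median of 17.8 kb for the smaller of the XX and XY widths, beside a median of 4.6 kb in each list over the class with H3K27Ac alone. Pou5f1, the gene of Oct4, lay under regions of 35.2 kb (XX) and 36.4 kb (XY), Nanog under 37.2 and 36.0 kb and Sox2 under 17.8 and 33.4 kb, and none of the 3 had H3K27Me3 in either list. These starts were also CpG-poor for the class, with a median ratio of 0.443 over the list. Esrrb, which encodes an orphan nuclear receptor of the naive network, had 62 kb (XX) and 62.6 kb (XY) of H3K27Ac and 24.2 and 18.4 kb of H3K27Me3, but no single TSS of Esrrb had both. Klf4, Tbx3, Prdm14 and Nr5a2 had both marks at the same TSS. Prdm14, which encodes a regulator of pluripotency and germ cells, had H3K27Ac over 10.2 kb (XX) and 5.2 kb (XY) and H3K27Me3 over 10.6 and 13.8 kb.

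Fibroblast markers were examined for the feeder cells. Of 20, 2 had H3K27Ac alone (Lum and Vim), 9 had H3K27Me3 alone and 9 had neither, beside 38.9%, 16.9% and 34.6% of all gene models. H3K27Ac was found at 2 of 20 in the XX list and at 6 of 20 in the XY list, the further ones being Col1a1 (2.6 kb), Twist1 (2.0 kb), S100a4 (11.4 kb) and Tagln (5.0 kb). The defining collagen genes Col1a2 and Col3a1 had no region of either mark within 2 kb of a TSS in any list. Thy1, a surface glycoprotein gene, lay under 10.4 kb (XX) and 7.4 kb (XY) of H3K27Me3 alone. The part of residual feeder cells in the regions was not tested.

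Lists of general cell functions mostly had H3K27Ac alone, which was found at 38.9% of all gene models. It was found alone at 64 of 66 replication-dependent histone genes, 34 of 35 genes of mitochondrial complex I, 30 of 31 spliceosome genes of the Sf3, Snrp and Srsf families, 67 of 75 cytosolic ribosomal protein genes, 64 of 73 mitochondrial ribosomal protein genes, 34 of 40 proteasome subunit genes and 12 of 13 glycolysis genes. The widths of their H3K27Ac regions varied between lists. The median over genes with the mark, taking the smaller of the XX and XY widths, was 2.8 kb for complex I, 3.4 kb for mitochondrial ribosomal protein, 4.5 kb for proteasome, 4.7 kb for spliceosome, 9.0 kb for cytosolic ribosomal protein, 10.4 kb for histone and 12.2 kb for glycolysis genes. Gapdh, a glycolytic enzyme gene, had 21.0 kb (XX) and 19.2 kb (XY). Some members stood apart. Psmb8 and Psmb9, which encode inducible subunits of the immunoproteasome, had no H3K27Ac apart from 3.8 kb at Psmb9 in the XY list, and lay under a shared H3K27Me3 region of 40.6 kb (XX) and 36.0 kb (XY). Psmb10, the gene of the other inducible subunit, had H3K27Ac alone (4.6 kb in XX, 6.4 kb in XY). B2m, the light chain of MHC class I, had no H3K27Ac and 5.4 kb (XX) and 6.2 kb (XY) of H3K27Me3.

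Cell cycle genes were divided by role. Of 24 cyclins, kinases and replication factors, 21 had H3K27Ac alone, beside 38.9% of all gene models, among them all of Mcm2 to Mcm7, the replicative helicase, and Ccna2, Ccnb1, Ccne1 and Cdk1. Cdk6 and the retinoblastoma gene Rb1 had both marks. The cyclin D2 gene Ccnd2 had H3K27Ac of 4.2 kb in the XY list only and H3K27Me3 of 26.2 kb (XX) and 22.4 kb (XY), and so counted as H3K27Me3 alone. Of the 7 CDK inhibitor genes, which brake the cycle, 5 had both marks, beside 9.64% of all gene models. At Cdkn2a, the gene of p16 and p19Arf, a 2.0 kb H3K27Ac region in each list lay within H3K27Me3 of 31.2 kb (XX) and 41.6 kb (XY). Cdkn2c had H3K27Ac of 1.6 kb (XX) and 1.8 kb (XY) and H3K27Me3 of 14.0 and 13.0 kb. The H3K27Ac regions covered the promoter shown above, and the H3K27Me3 regions began inside the gene and ran downstream, with an overlap of 0.6 kb. Cdkn1c, an imprinted inhibitor of growth, had H3K27Me3 alone over 114.8 kb (XX) and 55.6 kb (XY).

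Many lineage regulators had H3K27Me3 alone, which was found at 16.9% of all gene models, but the share varied between lists. It was found alone at 39 of 40 Hox gene models, 13 of 14 cardiac transcription factors, 11 of 12 endoderm factors, 14 of 17 neural factors, 17 of 19 Wnt ligands, 8 of 9 Pax genes and at every Gata (5), LIM homeobox (12) and Nkx (14) gene of the autosomes. Lower counts were found for blood factors (6 of 9), gastrulation and mesoderm factors (9 of 14), T-box genes (10 of 16), Sox genes (10 of 18), trophoblast genes (6 of 11), forkhead genes (21 of 39) and Zic and Gli genes (3 of 11, with 5 at H3K27Ac alone). By the XX lists alone, 1 Gata, 1 Nkx and 3 Hox gene models had both marks, against 0, 0 and 1 by the XY lists alone. Gata4, a zinc finger factor of heart and endoderm, had no H3K27Ac in either list and lay under 48.8 kb (XX) and 38.6 kb (XY) of H3K27Me3. Nkx2-5 likewise had none, and 30.2 and 26.2 kb of H3K27Me3. The Wnt ligands Wnt1 (47.6 and 47.0 kb) and Wnt3 (54.0 and 52.0 kb) were alike. Outside transcription factors, 56 of 93 potassium channel genes had H3K27Me3 alone.

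**Figure D4:**
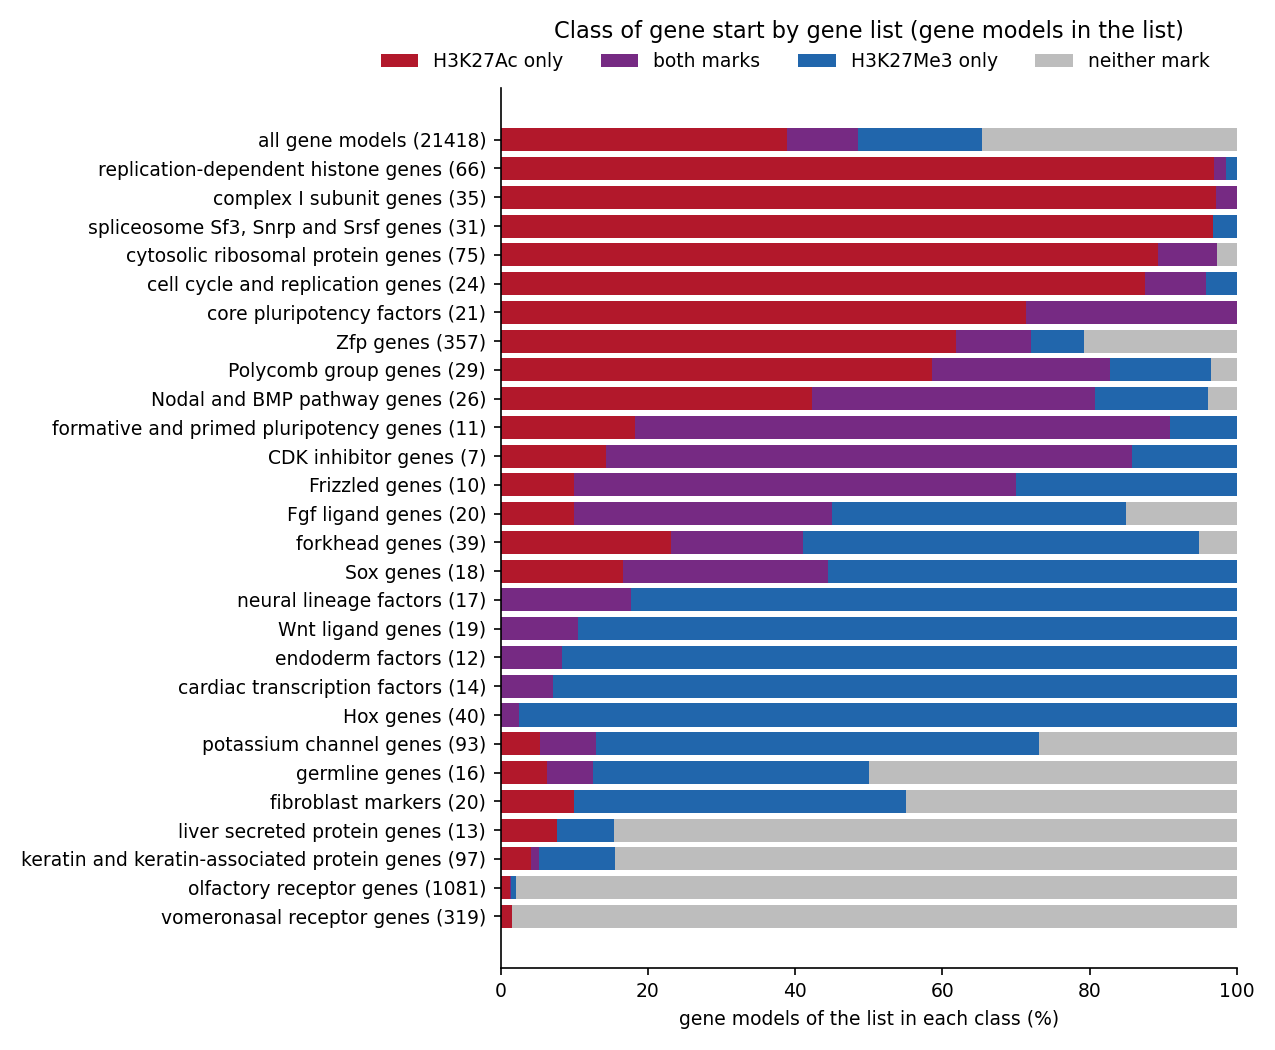
Share of the gene models of each list (%) in the 4 classes, with all gene models at the top and the number of gene models in brackets. General cell functions are at the top, lists with many genes of both marks in the middle, lineage regulators below them and genes of terminal tissues and sensory receptors at the bottom.

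Both marks were found at 9.64% of all gene models, and the lists with many such genes are described next. Of 11 genes of formative and primed pluripotency, 8 had both marks (Fgf5, Otx2, Dnmt3b, Lef1, Zic2, Etv4, Etv5 and Foxd3). Otx2, a homeobox factor of the epiblast and forebrain, had H3K27Ac of 10.8 kb (XX) and 9.6 kb (XY) and H3K27Me3 of 13.2 and 14.0 kb. Among 26 Nodal and BMP pathway genes, 11 had H3K27Ac alone, 4 had H3K27Me3 alone, 10 had both and 1 had neither. In percent these were 42.3, 15.4, 38.5 and 3.85, beside 38.9, 16.9, 9.64 and 34.6 of all gene models. The ligand Nodal had H3K27Ac alone (23.0 kb in XX, 24.8 kb in XY), the secreted BMP antagonists Nog and Chrd had H3K27Me3 alone, and the 4 BMP target genes Id1 to Id4, which encode inhibitors of differentiation, had both. Id3 had H3K27Ac of 10.6 kb (XX) and 12 kb (XY) within H3K27Me3 of 46.6 and 31.0 kb, and Id4 had narrower regions, with H3K27Ac of 2.6 and 1.8 kb and H3K27Me3 of 5.4 and 4.2 kb. Among the Wnt receptors, 6 of 10 Frizzled genes had both marks. So did 7 of 23 imprinted genes, 7 of 20 Fgf ligand genes and 5 of 18 Sox gene models. The neural factors Pax6, Olig1 and Olig2 also had both. Olig2 had 3.8 kb (XX) and 2.8 kb (XY) of H3K27Ac and 22.4 and 23.4 kb of H3K27Me3.

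**Figure D5:**
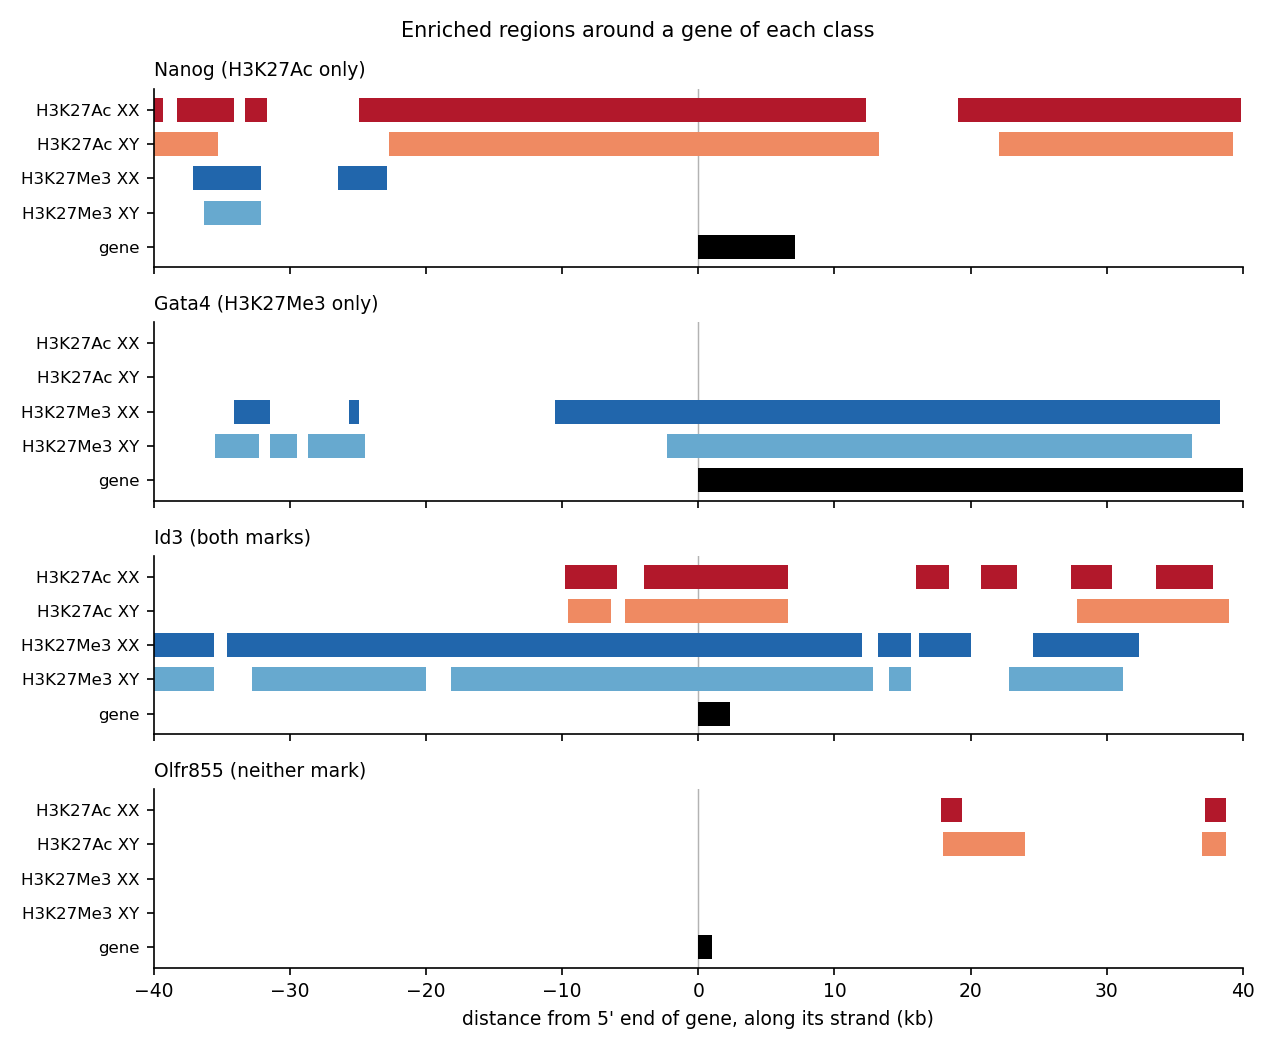
Enriched regions (bars) of the 4 lists within 40 kb of the 5′ end of 1 gene of each class, by distance along the strand of the gene (kb), with the gene body in black. Nanog lies under H3K27Ac, Gata4 under H3K27Me3, Id3 under both with H3K27Ac inside H3K27Me3, and Olfr855 has no region at its start.

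Genes of chromatin regulators were set beside the shares over all gene models of 38.9% with H3K27Ac alone, 16.9% with H3K27Me3 alone and 9.64% with both. Of 29 Polycomb group genes, 17 had H3K27Ac alone, including those of the PRC2 core Ezh2, Eed and Suz12, 7 had both, 4 had H3K27Me3 alone and 1 had neither. Those with H3K27Me3 alone included Bmi1, Pcgf5 and Cbx8, which encode subunits of Polycomb repressive complex PRC1. Bmi1 had 2.2 kb of H3K27Ac in the XX list only and lay under 37.4 kb (XX) and 25.8 kb (XY) of H3K27Me3. Of 13 DNA methylation genes, 10 had H3K27Ac alone and 3 had both. Dnmt3l, the cofactor of the de novo methyltransferases, had H3K27Ac alone (26.8 kb in XX, 27.2 kb in XY), whereas the methyltransferase gene Dnmt3b had H3K27Ac of 6.4 kb (XX) and 17.0 kb (XY) with H3K27Me3 of 21.2 and 22.4 kb.

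Lists of sensory receptors and of several terminal tissues mostly had neither mark, though they make up a minority of the class. Neither mark was found at 1059 of 1081 olfactory receptor genes, 314 of 319 vomeronasal receptor genes, 37 of 38 taste receptor genes, 39 of 41 beta-defensin genes, 82 of 97 keratin and keratin-associated genes and 11 of 13 genes of secreted or metabolic liver proteins, beside 34.6% of all gene models. In the XX lists alone the liver genes had neither mark at 7 of 13 and H3K27Me3 alone at 5, against 11 and 1 in the XY lists alone. Zfp and solute carrier genes did not share this, with neither mark at 74 of 357 (20.7%) and 95 of 335 (28.4%), below the 34.6% of all gene models. Most Zfp genes had H3K27Ac alone (221 of 357, 61.9%). Other tissue-specific genes were divided, and muscle and heart structural genes had H3K27Me3 alone at 8 of 16, both marks at 2 and neither at 6, beside 16.9%, 9.64% and 34.6% of all gene models. Germline genes had neither mark at 8 of 16 and H3K27Me3 alone at 6. The median CpG ratio over the 16 germline genes was 0.662. Dazl, which encodes a germ cell RNA-binding protein, had a ratio of 0.738 and no region within 2 kb of a TSS in any list. An unmarked start was thus not always CpG-poor. Sohlh2, a germ cell factor gene, and Mitf, the pigment cell factor gene, also had no region of either mark within 2 kb of a TSS. The paper reports H3K27Ac enriched in XX cells at a Prdm14 binding site downstream of Mitf, a site not examined here. Meis2, a homeobox partner of Hox proteins, had both marks.

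Neighbouring genes often shared a class. The next gene along the chromosome had the same class at 55.6% of genes with H3K27Ac alone, 30.4% with H3K27Me3 alone, 20.9% with both and 62.4% with neither, beside the class shares of 38.9%, 16.9%, 9.64% and 34.6%. Neighbours within a few kb can share 1 region, so these are not independent. The longest run with H3K27Ac alone was 22 genes from Btn2a2 to Hist1h4c on chromosome 13, within the histone cluster (210 kb). The longest with H3K27Me3 alone was 16 genes from Gm13271 to Ifna7 in the type I interferon cluster on chromosome 4 (61.4 kb), where 1 region of 37.8 kb (XX) and 38.2 kb (XY) lay over Ifnz. Apart from Ifnz and Ifna7, this run was made of Gm gene models. Of the 16 named type I interferon genes, 14 had neither mark, and only Ifnz and Ifna7 had H3K27Me3 alone. The longest with both was 6 genes from Thoc6 to Pkmyt1 on chromosome 17 (52.5 kb), which includes Cldn6 and Cldn9, and the longest with neither was 124 genes from Olfr153 to Olfr1272 on chromosome 2 (2750 kb).

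The classes also differed in features the rule did not use. H3K4Me1, found at 57.3% of gene models in both of its lists, was found at 87.6% of genes with H3K27Ac alone, 60.8% with H3K27Me3 alone, 91.8% with both and 11.9% with neither. Its place relative to the start differed. With H3K27Ac alone, coverage by H3K4Me1 was 62.2% (XX) and 57.7% (XY) at the 5′ end and peaked downstream, with 81.5% at 1400 bp (XX) and 82.2% at 1600 bp (XY), whereas with H3K27Me3 alone it peaked at 200 bp (62%, XX) and 600 bp (59.4%, XY). The median gene length was 20.8 kb with H3K27Ac alone, 20.8 kb with H3K27Me3 alone, 27.1 kb with both and 6.40 kb with neither. A single annotated TSS was found at 29.4%, 40.6%, 25.6% and 67.4% of the same classes, and a gene with more TSSs has more chances to meet the rule.

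Few genes lay near the limit of 2 kb. In each list a region covered a TSS of the gene at 95.9% of genes with H3K27Ac and at 76.2% of genes with H3K27Me3. Where a gene has several TSSs, the covered TSS could differ between the lists. Between 1800 and 2000 bp, just inside the limit, lay 49 genes for H3K27Ac and 48 for H3K27Me3, and between 2000 and 2200 bp, just outside, lay 53 and 56. The nearest to it were 1700013G24Rik (2000 bp) and Ccdc147 (2003 bp) for H3K27Ac and Cdk2ap2 (1999 bp) and Dnahc2 (2005 bp) for H3K27Me3. Dppa3, a maternal factor gene of the pluripotency list with H3K27Ac of 10.0 kb in both lists, had H3K27Me3 at 1229 bp from a start in the XX list and at 2229 bp in the XY list, and so counted as H3K27Ac alone.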

How the data were processed

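ChIP-seq of H3K27Ac and H3K27Me3 in 2 XX and 2 XY ES lines was used, with H3K4Me1 as a further readout. The IgG and input samples have no list and were not used here. Reads were aligned to mm9 by the authors with Bowtie2, and Bedtools was used. The submitters' processing notes name Bowtie and deepTools. The files deposited by the authors hold the coordinates of enriched regions, in base pairs on a grid of 200 bp, as 1 list per sex and mark. The caller, its threshold, its controls and the pooling of lines are details not given in the sources used here. A shorter list may come from a shallower library or a stricter threshold.

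Gene models and TSSs came from GENCODE M1 on NCBIM37, whose chromosome lengths equal those of mm9. Symbols were used as annotated, and 137 symbols are shared by more than 1 model. Antisense or overlapping genes can share a region. Python 3.11.15, NumPy 2.4.6, pandas 2.3.3 and SciPy 1.17.1 were used. Gene counts were checked against Bedtools 2.31.1 and were equal for 4 of 4 lists, and the classification was tested on simulated data. Means ± SD and exact permutation tests, two-sided, were made over 2 lists against 2. With 2 lists against 2, the p-value takes its smallest value whenever the marks do not overlap, so it measures no spread between lines. Each SD is between the XX and the XY list of a mark. It joins sex, line and list length and is not a spread of replicates. Classes, lists and regions over genes are descriptions, since genes are not replicates.

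Every member of a list of up to 30 genes could be named, as could up to 6 members per class of larger families in order of symbol, the 5 genes of each class with the widest regions or longest shared stretches, the genes nearest to the limit and the genes that the study names for histone marks. Hoxc8, Hoxd9, Psmb10 and the genes at the ends of runs were named after their values were seen. Some items that the rule names are not reported here. Members and lists were chosen with earlier results of these data known. The alternatives were other windows, other TSS sets, either list or the lists of 1 sex, wider regions and genes without a close neighbour.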

Additional observations from a re-analysis of the deposited data

Results flagged for a closer look

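The X chromosome was left out of the classes. By the same rule, 289 of its 932 gene models (31.0%) had H3K27Ac alone, 43 (4.61%) had H3K27Me3 alone, 5 (0.536%) had both and 595 (63.8%) had neither, beside 38.9%, 16.9%, 9.64% and 34.6% on the autosomes. These values are given because they lie in data outside the comparison. The XX and XY lists held 993 and 793 H3K27Ac regions on the X chromosome, and 264 and 148 H3K27Me3 regions.

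The XX list of H3K27Ac held 6 regions on the Y chromosome, which XX cells lack, and the XY list also held 6. The H3K27Me3 lists held 0 (XX) and 13 (XY). The source of the 6 regions was not tested, and none of them enters a value of the report.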

How the results depend on the processing

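The class with both marks depended most on the settings. Beside 2064 genes, it held 1024 when a region had to cover the TSS itself, 4212 with a region in either list of a mark, 3346 with the XX lists alone, 1042 with equal numbers of the widest regions and 650 with regions at least as wide as the median of their list. H3K27Ac alone held 4872 genes with equal numbers of the widest regions and 4859 with regions at least as wide as the median. It held 5544 among the 16952 genes with no TSS of another gene within 4 kb. That setting has fewer genes, and the share was 32.7%, beside 38.9% of all gene models. Neither mark held 12291 genes with regions at least as wide as the median. The other 51 values stayed within 1.5 times the class counts of the report or kept the direction of the difference. No paired analysis was possible because the lists do not separate the lines, which alone carry replicate numbers. Paired by sex, both differences kept their sign in 2 of 2 pairs, where the smallest two-sided p of an exact permutation test is 0.5. No line could be left out either, and the XX or the XY lists alone were used instead. With 2 lists a mark, the spread between lines and the depth behind a missing region are unknown, so a gene without a region is one where none was listed.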
